A study of Rattus norvegicus with 24 samples.

Results

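The genes described here carry glucose into brain cells and break it down: the glucose transporters Slc2a1 and Slc2a3, the hexokinases Hk1 and Hk2, and the glycolytic enzymes Aldoa, Gapdh, Eno1, Eno2, Pkm and Ldha. Total RNA from whole rat brain was measured with 24 one-colour arrays of short DNA probes, each holding a single sample. The members were all probe sets whose platform gene symbol is 1 of these 10. No measured value entered that rule, but the genes were listed with earlier results of these data known. Of 8799 probe sets, 23 carried such a symbol, 21 of them as their only symbol, and these 21 stand for 8 of the 10 genes, out of 4737 genes with such a probe set. Eno2 had no probe set with its symbol in that annotation. Ldha appeared only on M54926_at, which is also annotated to Ldhal1, and M17701_s_at listed Gapdh beside 2 Gapdh-like genes. Both probe sets with several symbols are reported by their IDs, and their values are not assigned to a gene.

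Rats had 5 or 10 exposures to an inhaled anaesthetic, either halothane or isoflurane, with 3 arrays for each of these 4 groups and 12 for control. Halothane, a halogenated alkane, was given at 0.8% and isoflurane, a halogenated ether, at 1.0%, so the agents were matched in number of exposures but not in concentration. An exposure lasted 90 min, with 2 a day separated by 3 h, and the courses took 2.5 days for 5 exposures and 5 days for 10. Controls breathed halothane for 3 min and were then perfused with ice-cold saline, so they were not free of the agent. The sources used here name no sham course, strain, age or time from the last exposure to collection. Since no label ties a replicate to an animal of its own, p-values refer to the spread among arrays, some of which may be technical.

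Neurons depend on a steady supply of glucose. Slc2a1 carries it across the endothelium of the blood-brain barrier and into glia, and Slc2a3 is the main neuronal transporter. Hexokinase then traps glucose as glucose 6-phosphate, aldolase splits the phosphorylated sugar, and Gapdh, enolase and pyruvate kinase carry the products to pyruvate, which lactate dehydrogenase can reduce to lactate. Several of these genes, Slc2a1 and Hk2 among them, are known targets of hypoxia-inducible factor, a transcription factor that binds a short core sequence in DNA.

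The promoters of Slc2a1 and Hk2 are shown because 1 or the other of these genes had the lowest p among the members with 1 symbol in most comparisons below. In the remaining comparisons it belonged to dim Gapdh control probe sets described below. Each line gives the 250 bases before the annotated start (RefSeq, GRCr8), 5′ to 3′ along the gene's strand. Capitals mark the cores ACGTG and GCGTG of the hypoxia response element, searched on both strands, so that a core on the opposite strand reads CACGT or CACGC. The Slc2a1 window is chr5:138002272-138002521 on the plus strand, and the Hk2 window is chr4:116841276-116841525 on the minus strand.
Slc2a1: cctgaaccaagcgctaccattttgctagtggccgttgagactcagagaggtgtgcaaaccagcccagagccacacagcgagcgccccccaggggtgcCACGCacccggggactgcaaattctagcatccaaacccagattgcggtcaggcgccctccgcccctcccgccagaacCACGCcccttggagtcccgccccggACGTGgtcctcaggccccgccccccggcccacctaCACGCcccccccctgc
Hk2: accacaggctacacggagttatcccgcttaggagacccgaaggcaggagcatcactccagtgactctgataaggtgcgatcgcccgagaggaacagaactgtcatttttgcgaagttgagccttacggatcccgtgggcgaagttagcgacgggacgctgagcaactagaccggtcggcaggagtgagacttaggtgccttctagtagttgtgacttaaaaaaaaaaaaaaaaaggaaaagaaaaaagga
The Slc2a1 window held 4 cores, a number reached by 2.4% of the 33469 windows of this length in the table, and the Hk2 window held 0. The Gapdh window, which is not shown, held 3, a number reached by 6.2%. At least 1 core was present in 36.7% of all windows and in 8 of the 13 windows of these genes. Of the 10 genes, 9 had a window and 7 had a core in at least 1 window. Genes with several windows had more chances of a core, so the count of genes is not comparable with the share of windows. These are letter matches in a short window and say nothing of binding.

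Signals below are the deposited intensities, which have no absolute unit, and signals of different probe sets are not set against each other. Medians of the arrays ranged from 53.5 to 64.9. Neuronal, astrocyte and myelin markers were high in every group, as summed over 7, 7 and 6 genes: neuronal sums lay between 5119.6 and 7903.6 on all arrays, astrocyte sums between 9153.5 and 12974.4, and myelin sums between 7910.6 and 11990.3. The arrays differed in 9 probe sets of bacterial spike-in RNA: 9 arrays had a high level (controls 1, 3, 10, 11 and 12 and replicate 3 of every exposed group) and 15 a low level, with a gap of 0.57 on the log2 scale between them. The split was made at the widest gap in the mean log2 signal of these probe sets. That mean ran from 7.78 to 9.03 on low arrays and from 9.60 to 10.48 on high arrays, so each level was itself spread. This level moved with several of the genes described here, as given below. Lower signal of a transcript from fewer cells and from less RNA per cell cannot be told apart in whole tissue.

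Of the 21 probe sets with 1 symbol, 20 were above the floor of 16.5 on at least 3 arrays and were tested by limma among 7398 probe sets. The exception was the Hk2 probe set D26393exon_s_at, at 2.3 to 7.4 on every array. Against control, 0 of the 20 passed an adjusted p of 0.05 after 5 halothane exposures (0.0135% of all probe sets passed), 10 halothane exposures (0.0406%), 5 isoflurane exposures (0%) or 10 isoflurane exposures (0%). Over all 12 exposed arrays against control, 0 of 20 passed, and 0% of all probe sets did. At an unadjusted p under 0.05 there were 1 of 20 after 5 halothane exposures (3.53% of all probe sets), 3 after 10 (7.54%), 0 after 5 isoflurane exposures (2.12%), 0 after 10 (9.04%) and 2 over all exposed arrays (8.45%). The members of these small counts are described below.

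**Figure D1:**
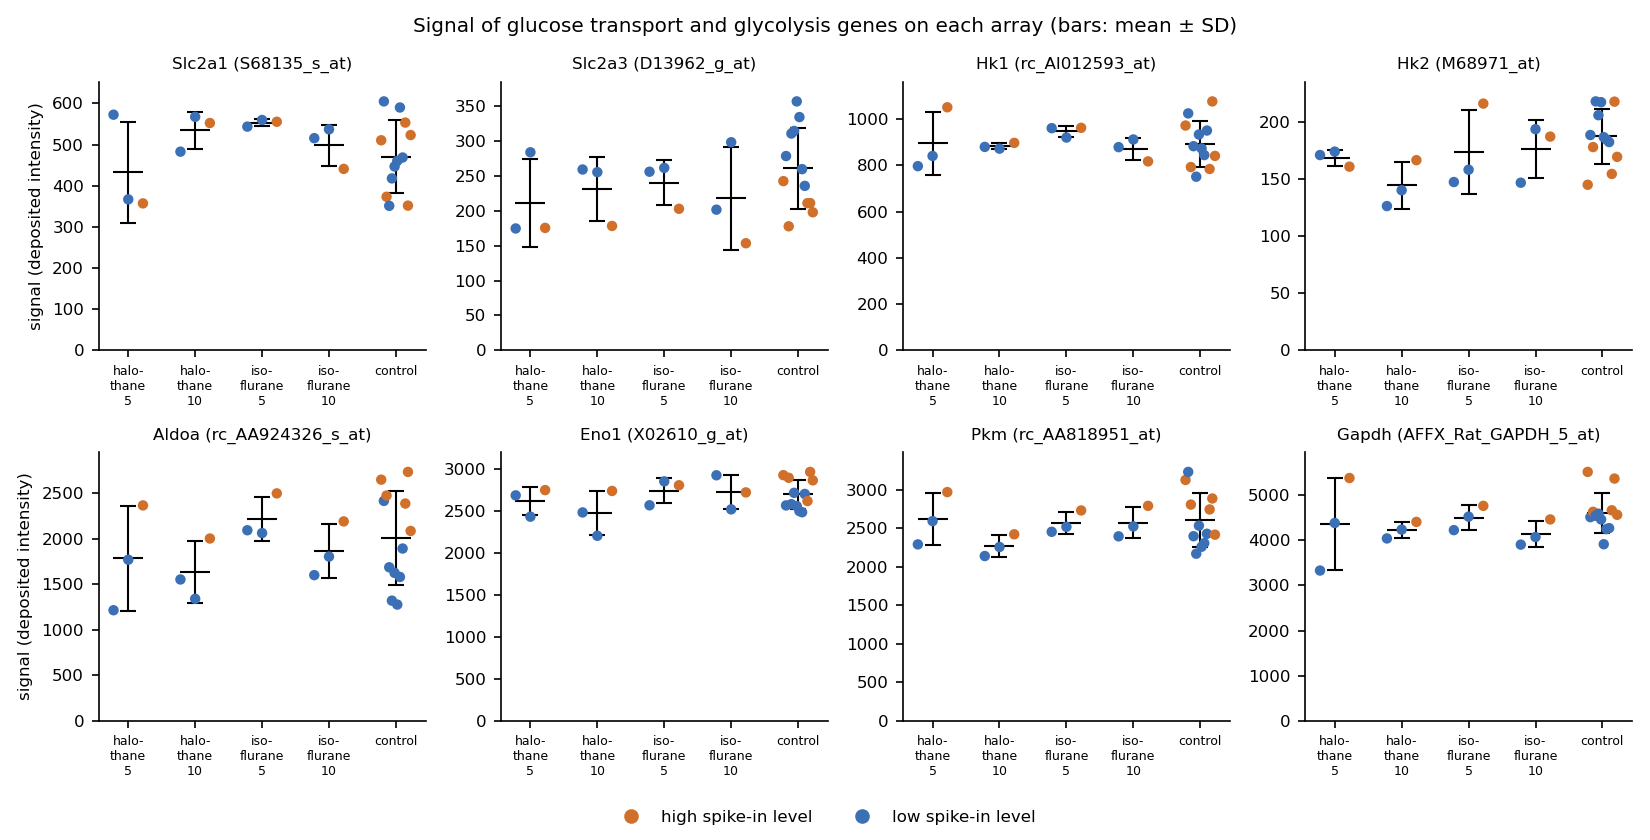
Deposited signal (vertical axis, linear, from 0) of the brightest regular probe set of each gene, or the 5′ control probe set for Gapdh, in the 4 exposed groups and control. Points are arrays, coloured by spike-in level, and bars are mean ± SD (n = 3 per exposed group, n = 12 control). Exposed arrays lie largely within the control range in all 8 panels, and orange points sit high for Aldoa and low for Slc2a3.

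The transporters did not pass the test in any comparison with control. The brightest Slc2a1 probe set, S68135_s_at, had signals of 572.7, 366.8 and 357 after 5 halothane exposures, 482.8, 567.5 and 552.5 after 10, 543.7, 559.8 and 555.5 after 5 isoflurane exposures, and 515.6, 537.1 and 440.9 after 10. The controls ran from 351.1 through a median of 464.45 to 605. All 12 exposed arrays therefore lay inside the control range, and 1 of the 3 arrays with 5 halothane exposures stood well above the other two. The log2 fold change over control was -0.14 after 5 halothane exposures, 0.20 after 10, 0.26 ± 0.16 (SE, adjusted p = 1) after 5 isoflurane exposures, the lowest p of any member in that comparison, and 0.10 after 10. A second Slc2a1 probe set, M13979_at, gave 0.0068, -0.045, 0.31 and -0.085 in the same order, so the 2 probe sets differed in sign after 5 and 10 halothane exposures and after 10 isoflurane exposures.

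Slc2a3 (D13962_g_at) had signals of 174.7, 284 and 175.5 after 5 halothane exposures, 259.3, 255.5 and 178.3 after 10, 256.1, 261.6 and 202.9 after 5 isoflurane exposures, and 201.7, 298.4 and 153.5 after 10, against 177.8, 251.2 and 357 in control (lowest, median, highest). The exposed arrays overlapped the controls in every group, and 3 of the 12 lay below the lowest control. Its log2 fold changes were all negative, between -0.31 (adjusted p = 1, 5 halothane exposures) and -0.096 (adjusted p = 1, 5 isoflurane exposures), and -0.21 ± 0.13 (SE, adjusted p = 0.672) over all exposed arrays. A dimmer Slc2a3 probe set, D13962_at, lay between 13.6 and 40.7, near the floor.

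Hexokinase 1, the main brain isoform, binds to mitochondria. The brightest regular Hk1 probe set, rc_AI012593_at, had 796.2, 840.3 and 1050.9 after 5 halothane exposures, 879.5, 871.9 and 896.9 after 10, 960.5, 920 and 962.1 after 5 isoflurane exposures, 878.5, 911.7 and 816.8 after 10, and 750.6, 877.65 and 1076.3 in control (lowest, median, highest). Every exposed array lay inside the control range. The 95% intervals of its log2 fold changes lay between -0.23 and 0.29 in the 4 comparisons, which bound a change on this probe set to between 0.85-fold and 1.23-fold. A dimmer regular Hk1 probe set, U27319exon_at, had log2 fold changes of -0.28, -0.097, 0.066 and -0.024 in the order of the groups. It read 126.2 on halothane 5 replicate 1 and 105.2 on isoflurane 10 replicate 1, under its lowest control of 135.1.

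The 3 control probe sets for Hk1 read its 3′ end, middle and 5′ end. Their log2 fold changes over control after 10 isoflurane exposures were -0.18, -0.40 and -0.40 in that order. On these probe sets 1 array stood apart. On halothane 5 replicate 1 the 5′ probe set read 31.6 and the middle one 86.8, while the other arrays of the group read 126.1 and 106.3 at the 5′ end and 279 and 282.3 in the middle. The ratio of 3′ to 5′ signal was 5.36 there and between 1.72 and 3.62 on the other 23 arrays. The same ratio for Gapdh lay between 0.876 and 1.16 on all arrays and was 1.16 on that array, the highest of the 24. Without halothane 5 replicate 1 the median log2 fold change of the 8 genes over control was 0.0063 after 5 halothane exposures, against -0.12 with it. The part of RNA quality in that shift was not tested.

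Hexokinase 2, the insulin-regulated isoform of muscle and fat that is scarce in brain, had the lowest p of the regular single-symbol probe sets after 10 halothane exposures. Its probe set M68971_at read 126.6, 140.5 and 166.9 after 10 halothane exposures, against 145.3, 186.1 and 218.5 in control (lowest, median, highest). Both of the lower exposed arrays lay under every control, and the remaining one lay inside their range. The log2 fold change was -0.37 ± 0.13 (SE, 95% interval -0.65 to -0.096, p = 0.0105 and adjusted p = 0.482 by limma). Over the other settings tried it lay between -0.57, among arrays with a low spike-in level alone (adjusted p = 0.158), and -0.24.

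In the other groups Hk2 read 171.4, 174.4 and 161.2 after 5 halothane exposures, 147.7, 158.5 and 216.6 after 5 isoflurane exposures, and 147.1, 194.1 and 187.6 after 10. These arrays all lay within the control range. Over all 12 exposed arrays the log2 fold change was -0.18 ± 0.085 (SE, p = 0.0445, adjusted p = 0.582). Over the other settings it lay between -0.34 (adjusted p = 0.159, low spike-in arrays alone) and -0.047. Hk2 was 1 of the 2 members under an unadjusted p of 0.05 in that comparison.

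Some marker lists of other tissue were also shifted after 10 halothane exposures, though the choroid plexus and myelin sums overlapped control. The sum of the 3 blood markers measured of 6 listed ran from 276 to 295.2 after 10 halothane exposures, against 374.8 to 824.2 in control. The sum of the 4 choroid plexus and ependyma markers measured of 5 ran from 4225 to 6800.6, against 2939.6 to 4835.5 in control. Oligodendrocyte and myelin markers had a median log2 fold change of -0.24, with 0 of the 6 measured of 8 higher and 6 lower, and their sum ran from 7910.6 to 10764.2, against 8351.1 to 11990.3 in control. In these 3 lists 0 markers lay at the floor on every array of the group, and limma called 0, with 3 blood markers, 2 choroid plexus and ependyma markers and 0 myelin markers under an unadjusted p of 0.05. Of the other lists after 10 halothane exposures, astrocyte markers had a median of 0.11 (6 higher and 1 lower), with 1 under an unadjusted p of 0.05. Markers of endothelium and pericytes were at -0.098 (1 higher and 5 lower) and pituitary markers at -0.16 (1 higher and 5 lower). Neuronal markers were at -0.0045 (3 higher and 4 lower) and microglia markers at -0.012 (3 higher and 3 lower). After 10 isoflurane exposures the blood markers had a median of -0.86 (0 higher and 3 lower). Choroid plexus and ependyma markers were at 0.37 (4 higher and 0 lower), and myelin markers at -0.0075 (2 higher and 4 lower). Hk2 was at -0.091 in that group, and Gapdh at its 3′ end at -0.12. After 5 isoflurane exposures the choroid plexus and ependyma markers were likewise at 0.37 (4 higher and 0 lower). There Hk2 was at -0.12 and Gapdh at its 3′ end at -0.055. The part of these tissues and cells in the Hk2 and Gapdh signals was not tested.

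Aldolase A, the aldolase of muscle and brain, varied widely among the controls, with an SD of 0.39 on the log2 scale. Its probe set rc_AA924326_s_at read 1214.2, 1769.3 and 2366 after 5 halothane exposures, 1552.1, 1339.7 and 2002.4 after 10, 2093, 2062.2 and 2498 after 5 isoflurane exposures, 1599.8, 1803.8 and 2190.1 after 10, and 1276.4, 1988.7 and 2734.2 in control (lowest, median, highest). Only 1 exposed array, halothane 5 replicate 1, lay outside the control range. The log2 fold changes were -0.18, -0.28, 0.18 and -0.075 in the order of the groups, and their intervals reached from -0.72 to 0.63.

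Enolase 1, the ubiquitous enolase, was read by 2 probe sets. X02610_g_at had 2690.1, 2435.7 and 2753.1 after 5 halothane exposures, 2486.3, 2207.6 and 2742.7 after 10, 2571.6, 2856.9 and 2810.8 after 5 isoflurane exposures, 2929.9, 2523.1 and 2725.4 after 10, and 2488.7, 2664.6 and 2970.1 in control (lowest, median, highest). It was tight in control, with an SD of 0.092 on the log2 scale, against a median of 0.19 over the 354 probe sets with a mean signal above 1000. Its largest log2 fold change over control was -0.13 ± 0.082 (SE, adjusted p = 0.733), after 10 halothane exposures. The second probe set, X02610_at, ranged from 1250.7 to 1837 on the exposed arrays and from 1301.5 to 2349 in control, where its SD was 0.29 on the log2 scale. Its log2 fold change was -0.24 after 10 halothane exposures and between -0.13 and -0.029 in the other groups.

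Pkm, the pyruvate kinase of brain and muscle (rc_AA818951_at), read 2289.4, 2592.2 and 2968.4 after 5 halothane exposures, 2138.2, 2255.7 and 2420.5 after 10, 2452.7, 2517.3 and 2730.1 after 5 isoflurane exposures, 2393.8, 2522.7 and 2789.8 after 10, and 2168.5, 2479.8 and 3230.5 in control (lowest, median, highest). The groups overlapped the controls in all 4 comparisons. The log2 fold change was -0.19 ± 0.11 (SE, adjusted p = 0.703) after 10 halothane exposures and between -0.013 and 0.0080 in the other groups.

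Gapdh, often used as a reference transcript, was read by 3 control probe sets of the messenger sense at its 3′ end, middle and 5′ end. The 3′ probe set had 3853.5, 4329.1 and 5292 after 5 halothane exposures, 3728.2, 3913.5 and 3920.1 after 10, 4279.4, 4434.9 and 4174.9 after 5 isoflurane exposures, 3914.8, 4153.7 and 4256.2 after 10, and 3976.7, 4460.9 and 5342.4 in control (lowest, median, highest). All 3 arrays with 10 halothane exposures lay under every control, by a narrow margin. The log2 fold change there was -0.21 ± 0.097 (SE, p = 0.0395, adjusted p = 0.653). It was the only 1 of 20 members whose range did not overlap the controls after 10 halothane exposures, where 1.14% of all probe sets did not. After 5 halothane exposures (0.351%), 5 isoflurane exposures (0.23%) and 10 isoflurane exposures (0.919%) that number was 0 of 20.

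The other Gapdh probe sets overlapped the controls after 10 halothane exposures. At the 5′ end the signals were 4043.1, 4239.1 and 4409.9, against 3914.6, 4556.9 and 5519 in control, or -0.12 ± 0.11 on the log2 scale (SE, adjusted p = 0.826). In the middle they were 3278, 3616.4 and 3947.3, against 3344.5, 4178.4 and 5445.8 in control, or -0.24 ± 0.13 (SE, adjusted p = 0.692). Between the 3 probe sets, arrays with 10 halothane exposures lay below every control on 4 of 9 readings.

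Another 3 Gapdh control probe sets have the opposite orientation and target the other strand. They were dim, from 3.3 to 104.5 on all arrays, and account for the remaining unadjusted p-values under 0.05. GAPDH_3_st read 17.3, 20.4 and 15.2 after 5 halothane exposures and 14.6, 14.1 and 19.6 after 10, against 18.3, 22.55 and 37.8 in control (lowest, median, highest). These values straddled the floor, and the log2 fold changes of -0.42 ± 0.19 (SE, adjusted p = 1) after 5 exposures and -0.46 ± 0.19 (SE, adjusted p = 0.591) after 10 depend on it. The first was -0.20 on low spike-in arrays alone. Over all exposed arrays it had -0.28 ± 0.12 (SE, adjusted p = 0.519). GAPDH_M_st had the lowest p of any member after 10 isoflurane exposures, with 33.9, 38 and 33.6 against 25.5, 58.55 and 104.5 in control, or -0.76 ± 0.37 on the log2 scale (SE, adjusted p = 0.553).

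The lowest p among all probe sets with a member symbol belonged to M54926_at, annotated to both Ldha and Ldhal1. It read 300.7, 907.5 and 874.7 after 10 halothane exposures, against 750.4, 993.3 and 1117.6 in control (lowest, median, highest). A single array, halothane 10 replicate 1, lay far below the 750.4 to 1237.9 of the other 23 arrays. The log2 fold change over control was -0.65 ± 0.20 (SE, p = 0.00306, adjusted p = 0.344) with that array and -0.13 without it. The comparisons of 10 halothane exposures with 10 isoflurane exposures (-0.70, adjusted p = 1) and with 5 halothane exposures (-0.66, adjusted p = 1) rest on the same array, and without it they were -0.18 and -0.13. The second probe set with several symbols, M17701_s_at, ranged from 2947.3 to 3839.4 on exposed arrays and from 3070.3 to 4453.4 in control.

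**Figure D2:**
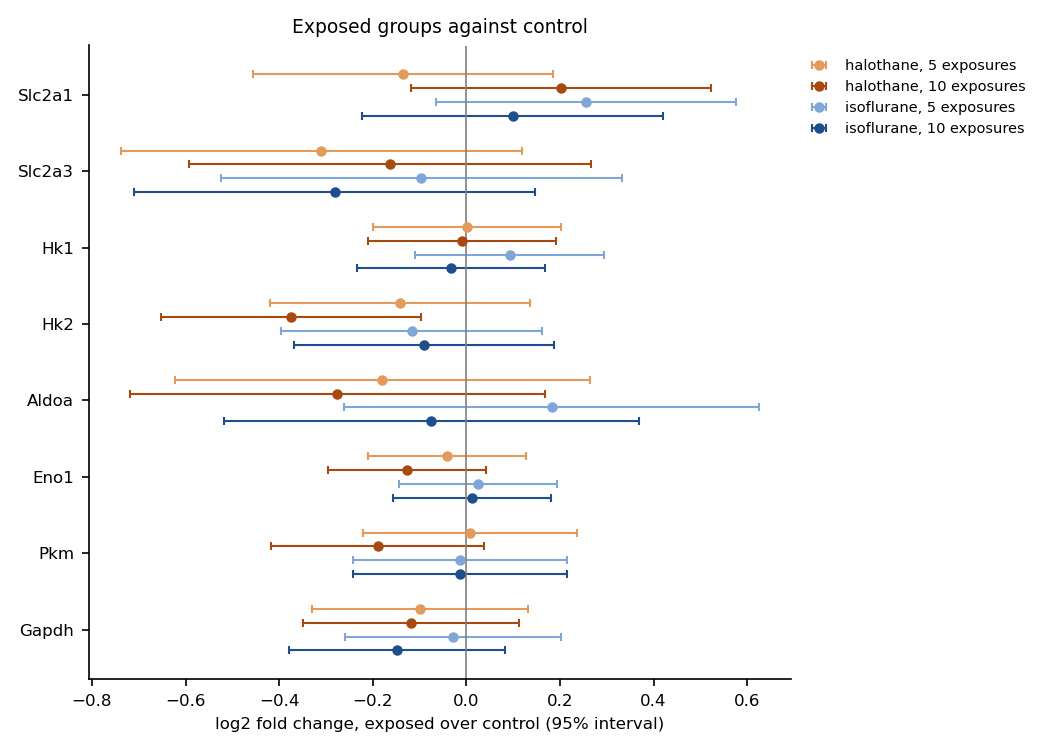
Log2 fold change of each exposed group over control (horizontal axis) for 1 probe set per gene (vertical axis), with 95% intervals from limma (n = 3 per exposed group, n = 12 control). All intervals include 0 except that of Hk2 after 10 halothane exposures, which runs from -0.65 to -0.096 before correction for the number of probe sets.

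Taking 1 probe set per gene, the 8 genes had a median log2 fold change over control of -0.12 after 5 halothane exposures (2 higher and 6 lower), -0.15 after 10 (1 higher and 7 lower), 0.0056 after 5 isoflurane exposures (4 higher and 4 lower) and -0.054 after 10 (2 higher and 6 lower). Over all 7398 probe sets the medians were -0.0078, -0.034, 0.0061 and -0.0029 in the same order. The 4 comparisons share the 12 controls and are therefore not separate evidence. The 1 gene that was higher after 10 halothane exposures was Slc2a1.

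The agents were set against each other at 5 exposures, at 10 exposures and over both, and p-values were adjusted over all 7398 probe sets within each comparison. At 5 exposures 0 of 20 members passed (0.0135% of all probe sets), at 10 exposures 0 of 20 (0%) and over both 0 of 20 (0%). At an unadjusted p under 0.05 there were 0 of 20 in each, against 2.97%, 3.11% and 3.92% of all probe sets. Per gene, the median log2 fold change of halothane over isoflurane was -0.081 at 5 exposures (1 higher and 7 lower), -0.058 at 10 (4 higher and 4 lower) and -0.090 over both (0 higher and 8 lower). Of all probe sets, 44.9% were higher with halothane over both exposure numbers, with a median of -0.019. A p that misses the threshold does not show that the agents act alike, and the intervals below bound the differences.

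**Figure D3:**
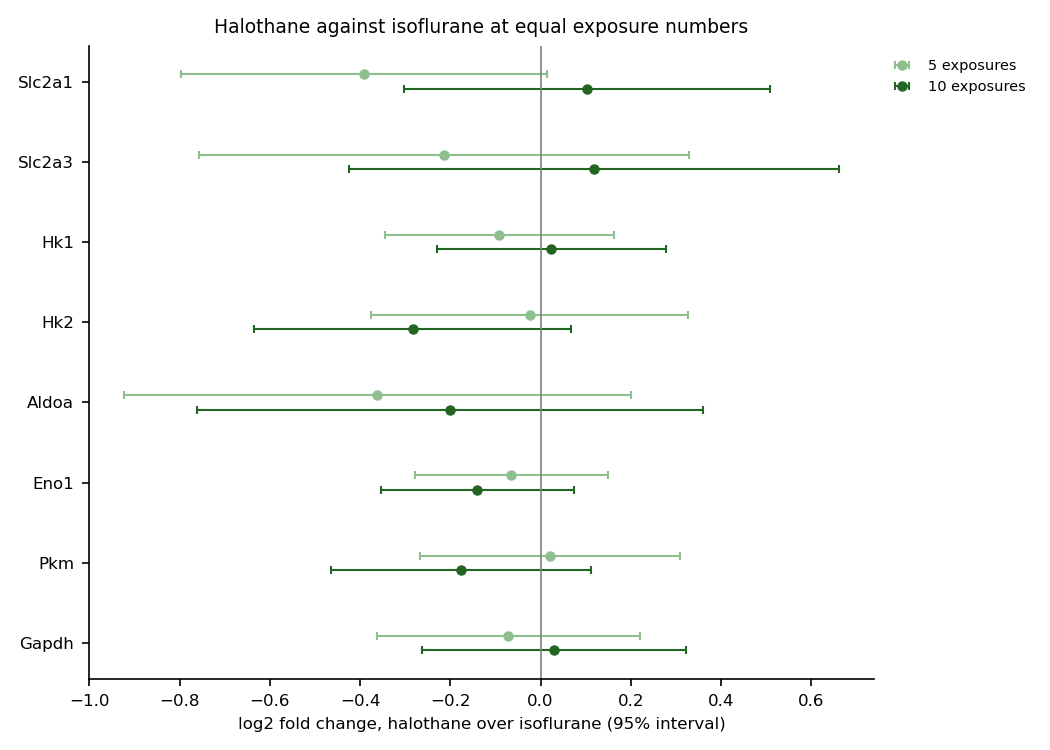
Log2 fold change of halothane over isoflurane (horizontal axis) for 1 probe set per gene (vertical axis) after 5 and after 10 exposures, with 95% intervals from limma (n = 3 per group). All 16 intervals include 0, and the widest belong to Aldoa and Slc2a3.

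At 5 exposures the lowest p among the members belonged to Slc2a1. The probe set S68135_s_at had 572.7, 366.8 and 357 after halothane and 543.7, 559.8 and 555.5 after isoflurane, with 2 halothane arrays under all isoflurane arrays and 1 above them. The log2 difference was -0.39 ± 0.20 (SE, 95% interval -0.80 to 0.015, adjusted p = 1), or 0.76-fold with an interval from 0.58 to 1.01. Without halothane 5 replicate 1, the high array, it was -0.61 (adjusted p = 0.80). M13979_at had 166.4, 178.2 and 151 after halothane and 220.8, 208.5 and 183.1 after isoflurane, without overlap, and a difference of -0.30 ± 0.24 (SE, adjusted p = 1). It was the only 1 of 20 members whose ranges did not overlap, against 9.49% of all probe sets. Aldoa had a difference of -0.36 with an interval from -0.92 to 0.20, while the intervals of Hk1 (-0.35 to 0.16), Eno1 (-0.28 to 0.15), Pkm (-0.27 to 0.31) and Gapdh (-0.36 to 0.22) were narrower.

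At 10 exposures Hk2 had the lowest p among the 20 members, with 126.6, 140.5 and 166.9 after halothane and 147.1, 194.1 and 187.6 after isoflurane. The ranges overlapped, and the log2 difference was -0.28 ± 0.17 (SE, 95% interval -0.64 to 0.068, adjusted p = 1). Slc2a1 differed by 0.10 (interval -0.30 to 0.51). The 5′ control probe set of Hk1 was the only 1 of 20 without overlap (6.24% of all probe sets), with 88.1, 91.8 and 79.6 after halothane and 51.9, 71.5 and 79.1 after isoflurane. Its log2 difference was 0.38, against 0.20 in the middle, 0.031 at the 3′ end and 0.024 on rc_AI012593_at. The ratio of 3′ to 5′ signal of Hk1 ran from 2.11 to 2.61 after halothane and from 2.71 to 3.34 after isoflurane. The part of RNA quality in this reading was not tested. Over both exposure numbers the lowest p belonged to the dim GAPDH_3_st (-0.31, adjusted p = 1).

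The longer course was also set against the shorter one. Of the 20 members 0 passed for halothane (0.0135% of all probe sets) and 0 for isoflurane (0%), and 0 had an unadjusted p under 0.05 in either (3.74% and 3% of all probe sets). For halothane, Slc2a1 (S68135_s_at) had the lowest p of the 20, with 482.8, 567.5 and 552.5 after 10 exposures and 572.7, 366.8 and 357 after 5, a log2 difference of 0.34 ± 0.20 (SE, adjusted p = 1). It was 0.56 without halothane 5 replicate 1, 0.22 without replicate 3 of that group and 0.19 among low spike-in arrays. For isoflurane, M13979_at of the same gene had it, with 181.9, 128.6 and 158 after 10 exposures and 220.8, 208.5 and 183.1 after 5, a difference of -0.40 ± 0.24 (SE, adjusted p = 1), and -0.26 without isoflurane 10 replicate 2.

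Both Slc2a1 probe sets were among the 5 of 20 members whose ranges did not overlap between 10 and 5 isoflurane exposures, against 7.6% of all probe sets. The other members of that count were 2 Hk1 probe sets, rc_AI012593_at and the 5′ control probe set, and GAPDH_M_st. All 5 were lower after 10 exposures. The ratio of 3′ to 5′ signal of Hk1 ran from 2.71 to 3.34 after 10 isoflurane exposures and from 1.72 to 3.04 after 5. The part of RNA quality in the 5′ reading was not tested. Markers of endothelium and pericytes, where Slc2a1 is known to be abundant, had a median of -0.27 in the same comparison, with 1 of the 6 measured of 9 higher and 5 lower. Their sum was 211.4 to 318.3 after 10 isoflurane exposures and 269.5 to 339.7 after 5. The 3 blood markers had a median of -0.75, with 0 higher and 3 lower, and sums of 254.9 to 434 after 10 exposures and 455.8 to 509.4 after 5. In both lists 0 markers lay at the floor on every array of either group, and limma called 0, with 1 in each under an unadjusted p of 0.05. For 10 against 5 halothane exposures the endothelium and pericyte markers had a median of -0.17 (1 higher and 4 lower). The blood markers had -0.56 (0 higher and 3 lower). In each of these halothane groups 1 endothelium and pericyte marker lay at the floor on every array. Slc2a1 was at 0.34 on S68135_s_at and at -0.052 on M13979_at in that comparison. The part of these cells in the Slc2a1 and Hk1 signals was not tested. Between 10 and 5 halothane exposures 0 of 20 lacked overlap (8.41%). The median over the 8 genes was -0.053 for halothane and -0.12 for isoflurane, against -0.014 and -0.0033 over all probe sets.

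Whether the effect of course length differed between the agents was tested as an interaction, in which 0 of 20 members passed, as did 0% of all probe sets, and none (0 of 20, against 2%) lay under an unadjusted p of 0.05. Slc2a1 came first again, with an interaction of 0.49 ± 0.28 on the log2 scale (SE, 95% interval -0.079 to 1.07, adjusted p = 1), and 0.26 among low spike-in arrays. The median over the 8 genes was 0.11. It was -0.069 without halothane 5 replicate 1 and 0.23 without replicate 3 of that group.

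**Figure D4:**
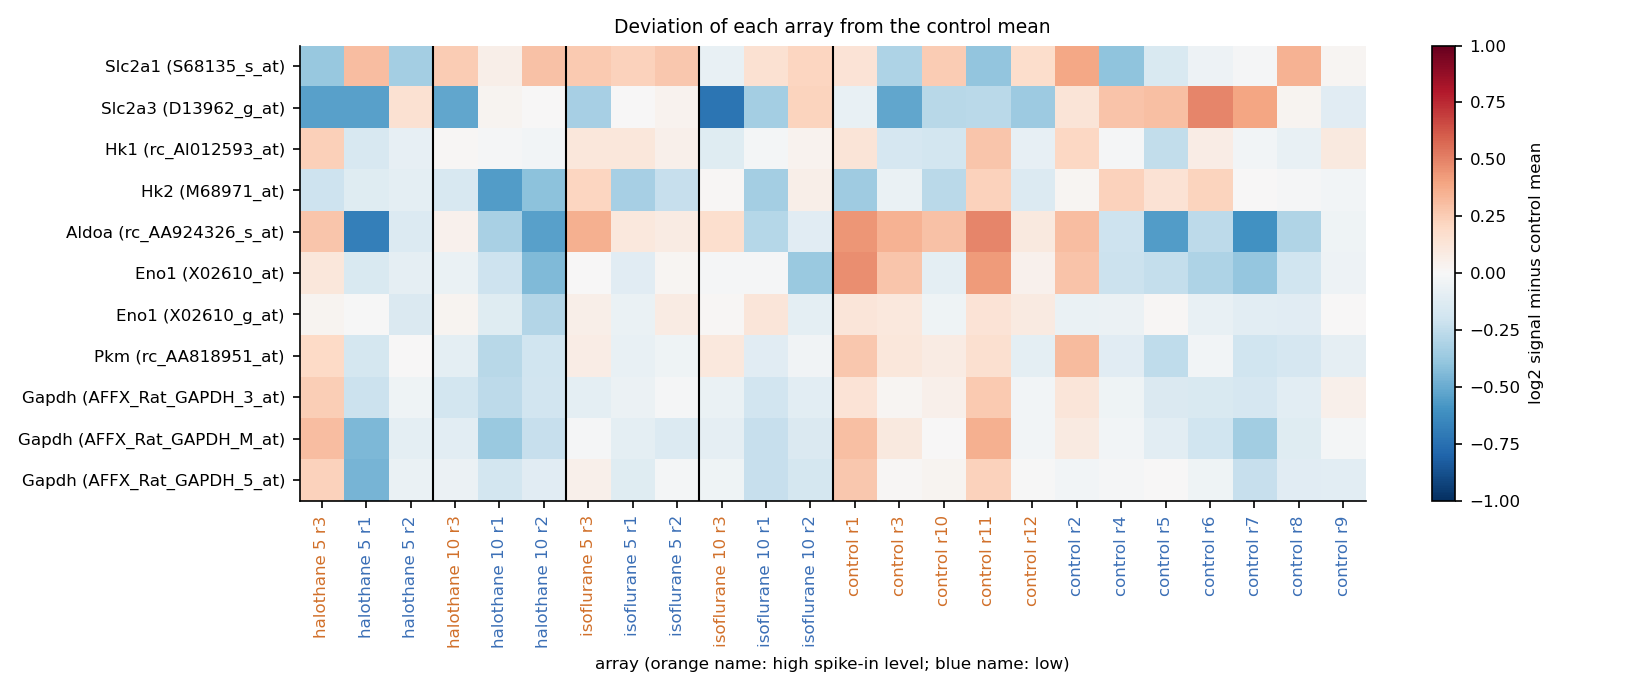
Log2 signal of 11 probe sets (rows) on each of the 24 arrays (columns) minus the control mean, blue for lower and red for higher, with arrays ordered by group and, within a group, by high (orange names) before low (blue names) spike-in level. Controls 1, 2 and 11 are red for Aldoa, Eno1 (X02610_at), Pkm and the 3′ and middle probe sets of Gapdh, and Slc2a3 is blue on all 9 arrays with a high spike-in level.

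Within the groups, some of the probe sets of enzymes downstream of hexokinase moved with the spike-in level of the array. This comparison, chosen after seeing the data, fitted high against low spike-in level with the 5 groups as blocks. At an adjusted p under 0.05 limma called 7 of 20 members higher and 1 lower. Of all 7398 probe sets 570 were called higher and 909 lower, which is 20% in both directions. Aldoa was higher by 0.51 ± 0.093 on the log2 scale (SE, adjusted p = 0.000395). Its controls ran from 2085.3 to 2734.2 (median 2474.6) on the 5 arrays with a high level and from 1276.4 to 2415.6 (median 1624.7) on the 7 with a low level. The array with the high level was also the highest of the 3 in 4 of 4 exposed groups.

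Gapdh was higher by 0.25 in its middle (adjusted p = 0.012) and by 0.20 at its 5′ end (adjusted p = 0.0198), Eno1 by 0.29 on X02610_at (adjusted p = 0.015) and Pkm by 0.18 (adjusted p = 0.0333). The other 2 calls were the dim GAPDH_5_st and GAPDH_M_st. X02610_g_at of Eno1 (0.12, adjusted p = 0.065), the 3′ probe set of Gapdh (0.13, adjusted p = 0.101) and the probe sets with several symbols, M17701_s_at (0.11, adjusted p = 0.209) and M54926_at (0.084, adjusted p = 0.698), were not called. Slc2a3 was the 1 member called lower, by -0.50 ± 0.090 (SE, adjusted p = 0.000405), with 177.8 to 242.6 on controls with a high level and 235.8 to 357 on controls with a low level. The level did not follow these enzymes on every array: control 2, at a low level, was with controls 1 and 11 among the highest 5 of 12 controls for Aldoa, Eno1 (X02610_at), Pkm and the middle and 3′ probe sets of Gapdh. No source used here says why the level differed, and its part in these signals was not tested.

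Since every exposed group held 1 array with a high level and the controls held 5 of 12, the comparisons with control were also fitted within it. With the level as a block, and among low arrays alone, 0 of 20 members passed in any comparison. Hk2 after 10 halothane exposures was at -0.37 with the block (adjusted p = 0.354), and Gapdh at its 3′ end at -0.20 (adjusted p = 0.447).

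The other genes of the pathway gave no call either. Of 23 other glycolytic enzymes, 12 were tested, and limma called 0 in any of the 11 comparisons. In the comparisons with control, the unadjusted p was under 0.05 for the liver-type phosphofructokinase gene Pfkl after 10 halothane exposures (-0.34, adjusted p = 0.659) and, after 10 isoflurane exposures, for Pfkfb1 (-0.31, adjusted p = 0.525) and Pfkfb2 (-0.91, adjusted p = 0.544), which encode enzymes that set the level of the phosphofructokinase activator. The median of the list was 0.020 after 5 halothane exposures, -0.075 after 10, -0.013 after 5 isoflurane exposures and -0.0032 after 10.

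Of 11 other glucose and lactate transporters 8 were tested, and 0 were called. Slc2a5, a fructose transporter, was the only one with an unadjusted p under 0.05 against control, after 10 isoflurane exposures (-0.50, adjusted p = 0.518). Of 12 genes of the pyruvate dehydrogenase complex and its kinases 9 were tested, 0 were called and 0 had an unadjusted p under 0.05 in any comparison. Their median over control was 0.066 after 5 halothane exposures, 0.13 after 10, 0.11 after 5 isoflurane exposures and 0.22 after 10, with 7, 8, 7 and 8 of 9 genes higher. The controls are shared, and 48.1%, 43.7%, 51.6% and 49.5% of all probe sets were higher in the same order.

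Of 20 genes of the pentose phosphate pathway, glycogen and gluconeogenesis 9 were tested, and 0 were called. Gpd2, the mitochondrial glycerol 3-phosphate dehydrogenase that passes glycolytic reducing power to the respiratory chain, read 106.1, 166.5 and 113.6 after 10 isoflurane exposures, against 132.8, 186.75 and 219.1 in control (lowest, median, highest). Both lower exposed arrays lay under every control. The log2 fold change was -0.53 ± 0.15 (SE, p = 0.00148, adjusted p = 0.302). Gpd2 was at -0.25 over all exposed arrays against control (unadjusted p = 0.0121, adjusted p = 0.436) and at -0.47 after 10 against 5 isoflurane exposures (unadjusted p = 0.0181, adjusted p = 1). Under an unadjusted p of 0.05 were also its cytosolic counterpart Gpd1 after 10 halothane exposures (1.02, adjusted p = 0.58) and the fructose bisphosphatase gene Fbp2 after 10 isoflurane exposures (-0.54, adjusted p = 0.434). The shares of all probe sets under that threshold are those given above for each comparison.

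Of 17 hypoxia-responsive genes 11 were tested, and 0 were called. Vegfa, an angiogenic factor induced by low oxygen, had the lowest p in the interaction of agent and course length (2.23 ± 0.72 on the log2 scale, SE, p = 0.00511, adjusted p = 1). It read 41.6, 111.9 and 35.9 after 5 halothane exposures, 122.8, 115.9 and 167.1 after 10, 113.3, 64.9 and 161.8 after 5 isoflurane exposures, 70.1, 52.2 and 44.8 after 10, and 37.7, 108.85 and 163.9 in control (lowest, median, highest). The ranges of 10 and 5 halothane exposures did not overlap, those of isoflurane did, and the controls alone spanned nearly the whole range. Hif1a, which encodes the oxygen-regulated subunit of hypoxia-inducible factor, was at -0.37 for halothane over isoflurane at both exposure numbers together (unadjusted p = 0.0268, adjusted p = 1). In the same comparison the collagen prolyl hydroxylase gene P4ha1 was at 0.35 (adjusted p = 1). Under an unadjusted p of 0.05 by limma, 1 gene of the list was lower after 5 isoflurane exposures than in control. For halothane over isoflurane 1 was lower at 5 exposures and 1 higher at 10. Between 10 and 5 halothane exposures 1 was higher.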

How the data were processed

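Per the labels, total RNA of whole rat brain was hybridised to 24 arrays. The authors deposited 1 linear intensity per probe set and array, and the sources used here do not name the software or scaling. The trimmed mean of each array, which leaves out its highest and lowest values, lay between 150.149 and 150.181. The deposited arrays thus shared a common scale. Array number limits the precision.

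Intensities under 16.5, the 25th percentile of the table, were set to it before log2, which understates changes of dim probe sets. Probe sets above it on at least 3 arrays were kept (7398 of 8799). Of 59 control probe sets 50 were left out, and 9 annotated to Hk1 or Gapdh were kept. limma 3.58.1 in R 4.3.3 (two-sided, intensity trend) fitted 5 groups on all arrays, with Benjamini-Hochberg adjustment over all probe sets, in 11 comparisons. A gene was represented by its brightest regular probe set. In each comparison, full values were given for members with an unadjusted p under 0.05, or for the lowest p, and other pathway genes were named under 0.01; those named between 0.01 and 0.05 were chosen after their values were seen. Scripts were tested on simulated data. Members and lists were chosen with earlier results of these data known. Promoters came from RefSeq, GRCr8.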

Additional observations from a re-analysis of the deposited data

How the results depend on the processing

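The count of members called was recomputed 417 times over the 11 comparisons, under 14 other settings and with each of the 24 arrays left out. It was 0 every time, and the lowest adjusted p of any single-symbol member was 0.0617, over all exposed arrays with the replicate block. That p belonged neither to Hk2 nor to GAPDH_3_st. Their lowest adjusted p by limma in that comparison over the other settings was 0.159 and 0.367. Numbers shared between groups do not state a pairing: deviations of same-numbered exposed arrays correlated with r from 0.087 to 0.52, over 0.1 in 16 of 18 pairs. Of differently numbered exposed pairs, 7 of 36 were over 0.1. With controls r was over 0.1 in 4 of 12 same-numbered pairs and in 45 of 132 others. Exposed pairs of replicate 3, the array with a high spike-in level, had r from 0.26 to 0.52. With the replicate number as a block, in which controls without a partner carry no weight, 0 of 20 members were called in every comparison, while over all probe sets 15 were called after 10 halothane exposures against control and 27 over all exposed arrays, against 3 and 0 without the block. Hk2 was at -0.24 and -0.047 in these 2 comparisons with the block. The 629 recomputed fold changes of the named probe sets all kept their sign and their side of the threshold. Hk2 after 10 halothane exposures ranged from -0.48 to -0.28 with 1 array left out. Of 428 recomputed medians of the 8 genes, 6 moved by more than 0.0987, the SD of that median among control arrays. Without halothane 5 replicate 1 these were 0.0063 for 5 halothane exposures over control and -0.069 for the interaction, without replicate 3 of that group 0.071 for 10 over 5 halothane exposures and 0.23 for the interaction, and on low spike-in arrays -0.20 for halothane over isoflurane at 5 exposures and 0.21 for the interaction; the cause was not tested. A fit on high spike-in arrays alone has 1 array per exposed group and was not made. Groups of 3 arrays limit these data to large changes: for Slc2a3, the interval of halothane over isoflurane at 5 exposures ran from -0.76 to 0.33.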
